A study of Mus musculus with 60 samples.

Results

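The 10 genes described here, Meg3, Rian, Mirg, Peg3, Snrpn, Ndn, Magel2, Kcnq1ot1, Zdbf2 and Nnat, are imprinted genes that are transcribed in the mouse brain. They were taken by their gene symbols from the 47574 entries of each expression table, and each symbol matched 1 entry. RNA-Seq was carried out on 60 libraries labelled as cortex or striatum of C57BL/6N mice aged 3 months, in 10 labelled groups of 6 libraries with 3 males and 3 females each. Each labelled tissue had 3 groups from the Δ12 line (+/+, Δ12/+, Δ12/Δ12) and 2 from the KO line (+/+, KO/+). The Δ12 allele lacks part of exon 12 of the endogenous huntingtin gene Htt, and the KO allele came from a founder line of the same editing experiment in which an imprecise deletion removed the splice donor of that exon. Both alleles are germline edits, so they are present in every tissue, and no group carries a transgene or a Cre driver. Expression is given as FPKM, the number of fragments relative to transcript length and to all mapped fragments, which the authors deposited. Libraries were then brought to a common scale with median-of-ratios size factors, and these values are called scaled FPKM.

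The labelled tissue could not be used as it stands. Slc17a7, the vesicular glutamate transporter of cortical projection neurons, was between 121 and 234 FPKM in 30 libraries and between 4.81 and 64.8 FPKM in the other 30. The first set is called cortex-like and the second striatum-like, with the boundary at 100 FPKM. The summed level of 10 striatal markers was between 153 and 624 scaled FPKM in the cortex-like libraries and between 1153 and 2207 in the striatum-like ones. Of each class, 15 libraries were labelled cortex and 15 striatum, so that the class had the name of the labelled tissue in 30 of 60 libraries. The cortex-like class held all Δ12-line libraries except the 6 labelled female Δ12/Δ12, and the striatum-like class held these 6 and all 24 libraries of the KO line. Class and line can therefore be told apart only through those 6 libraries. Xist was higher than the Y-linked gene Ddx3y in 15 of the 30 libraries labelled female, and the reverse was found in 15 of the 30 labelled male. Htt itself was between 11.7 and 17.3 FPKM in the libraries labelled KO/+, with medians of 13.9 FPKM in cortex and 14.3 FPKM in striatum, against medians of 16.5 FPKM in both labelled tissues of the +/+ libraries of that line. Those +/+ libraries ran from 15.7 to 17.7 FPKM in cortex and from 15.4 to 18.1 FPKM in striatum. The KO/+ libraries reached 17.3 and 16.8 FPKM, so the genotypes overlapped in Htt. One library, labelled striatum KO-line KO/+ female 3, has a title that names the Δ12 line, and it was kept in the KO line by its genotype label. The interval bounds of the FPKM correspond to about 12800000 to 19500000 fragments in the cortex-like libraries and 16400000 to 27500000 in the striatum-like ones.

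Imprinted genes are transcribed mainly from the copy of one parent, because methylation set in the germ line marks one of the copies. They lie in clusters, in which a differentially methylated control region acts on several genes at once. Many of them are expressed most strongly in the brain, and the hypothalamus, which controls feeding, water balance and hormone release, is known for high levels of several. In the clusters described here, Meg3, Rian and Mirg are maternally expressed noncoding transcripts, and the other 7 genes are paternally expressed. FPKM do not tell the parental copies apart, so none of the values below is a measurement of imprinting itself. In pieces of tissue, fewer cells of a type and less RNA per cell cannot be told apart.

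The sequences around the starts of 5 paternally expressed genes are shown because Ndn, Magel2, Nnat and Zdbf2 varied together among the cortex-like libraries and because Peg3 passed the test in 1 labelled comparison. Each is a RefSeq window on build GRCm38.p6 from 250 bases before the start to 50 after it, read 5′ to 3′ on the strand of the gene. Capitals mark matches to TGCCGC, the letters that the zinc finger protein ZFP57 binds when methylated, in this orientation or as GCGGCA.
Peg3 (chr7:6730370-6730669, minus strand): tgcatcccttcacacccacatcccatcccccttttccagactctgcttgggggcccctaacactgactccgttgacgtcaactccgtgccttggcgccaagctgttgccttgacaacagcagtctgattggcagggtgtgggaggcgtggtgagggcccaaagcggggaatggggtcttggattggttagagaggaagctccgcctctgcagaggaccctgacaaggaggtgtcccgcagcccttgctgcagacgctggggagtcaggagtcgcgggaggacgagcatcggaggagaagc
Ndn (chr7:62348027-62348326, plus strand): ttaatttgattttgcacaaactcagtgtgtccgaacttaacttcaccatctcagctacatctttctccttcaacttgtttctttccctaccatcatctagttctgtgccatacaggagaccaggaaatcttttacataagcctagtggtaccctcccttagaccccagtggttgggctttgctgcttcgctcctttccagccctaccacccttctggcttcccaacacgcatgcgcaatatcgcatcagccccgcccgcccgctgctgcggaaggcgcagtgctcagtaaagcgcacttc
Magel2 (chr7:62376729-62377028, plus strand): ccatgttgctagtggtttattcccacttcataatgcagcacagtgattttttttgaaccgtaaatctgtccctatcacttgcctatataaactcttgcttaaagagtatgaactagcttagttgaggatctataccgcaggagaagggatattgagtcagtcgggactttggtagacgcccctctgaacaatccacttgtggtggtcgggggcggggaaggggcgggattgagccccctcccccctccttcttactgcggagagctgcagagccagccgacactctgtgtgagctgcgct
Nnat (chr2:157559828-157560127, plus strand): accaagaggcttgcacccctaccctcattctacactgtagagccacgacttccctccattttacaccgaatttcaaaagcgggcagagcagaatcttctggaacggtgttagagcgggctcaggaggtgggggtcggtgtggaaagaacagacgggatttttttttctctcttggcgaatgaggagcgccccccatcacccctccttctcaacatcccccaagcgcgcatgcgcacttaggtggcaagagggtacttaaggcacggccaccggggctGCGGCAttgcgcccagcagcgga
Zdbf2, upstream start (chr1:63200108-63200407, plus strand): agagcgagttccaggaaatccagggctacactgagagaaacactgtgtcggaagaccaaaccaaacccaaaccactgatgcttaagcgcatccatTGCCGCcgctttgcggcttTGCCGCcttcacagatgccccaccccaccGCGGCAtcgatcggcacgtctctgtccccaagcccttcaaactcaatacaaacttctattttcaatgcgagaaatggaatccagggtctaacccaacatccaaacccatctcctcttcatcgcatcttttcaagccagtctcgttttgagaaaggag
The upstream Zdbf2 window held 3 matches and the Nnat window 1, and the letters were not in the other 3 windows. Of 32817 promoter windows of the same length, 11.6% held at least 1 match. The 8 letters GCCATNTT of the YY1 motif, or AANATGGC on the other strand, were in none of the 5 windows and in 6.04% of all windows. The number of CG dinucleotides was 13 for Peg3, 11 for Ndn, 10 for Magel2, 17 for Nnat and 15 for Zdbf2, against a median of 7 over all windows. The Zdbf2 entry of the tables starts further downstream, at position 63273265 of chromosome 1. A RefSeq window at that start held 38 CG dinucleotides and no match to TGCCGC or GCGGCA. The Ndn window lies within the entry of the tables, which starts at position 62346569 of chromosome 7. These matches describe the letters and not the binding of either factor.

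The levels of the 10 genes differed in both directions between the cortex-like and striatum-like libraries. The ranges of the 30 and 30 libraries did not overlap for 5 of the 10 genes: Rian and Ndn were higher in every cortex-like library, and Peg3, Snrpn and Kcnq1ot1 were lower. With quantile normalization, the direction for Rian was the opposite and the ranges of Ndn and Kcnq1ot1 overlapped. With FPKM as deposited, 4 of the 10 did not overlap, without Snrpn, where the share over all genes tested was 30.8%. The ranges did not overlap for 36.2% of the 16076 genes with a mean scaled FPKM of at least 0.5 (16.9% higher and 19.3% lower in the cortex-like libraries), a filter that all 10 genes passed. On FPKM as deposited, the median log2 difference over all genes (cortex-like minus striatum-like) was 0.25, against -0.06 after scaling, and of the genes without overlap 3352 were higher and 1603 lower, against 2712 and 3107 after scaling. The median absolute log2 difference between class means was 0.85 over the 10 genes and 0.80 over all genes. Since the classes were drawn from the same libraries, these values are a description, with no test. Markers of other cell types differed between the classes too. The summed level of 8 choroid plexus markers ran from 3.23 to 384 scaled FPKM in the cortex-like libraries and from 35.4 to 2119 in the striatum-like ones, and that of 5 oligodendrocyte markers from 301 to 599 and from 740 to 1216. Their part in the values of the imprinted genes was not tested.

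The maternally expressed noncoding genes lie next to each other on chromosome 12 of GRCm38. Meg3 (positions 109541001 to 109571726), whose RNA is held in the nucleus, had its lowest, median and highest values at 44.8, 65.7 and 94.8 scaled FPKM in the cortex-like libraries and at 90.1, 154 and 205.5 in the striatum-like ones. The classes met only at the edge, with 3 cortex-like libraries inside the striatum-like range and 1 striatum-like library inside the cortex-like range, and the difference of class means (log2, cortex-like minus striatum-like) was -1.21. With quantile normalization it was -2.60 and the ranges did not overlap. Rian (109603940 to 109661716), the host transcript of a large group of box C/D small nucleolar RNAs, went the other way, at 230, 271 and 357 scaled FPKM against 116, 160 and 204.9. Its difference was 0.76 with the scaling used here and -1.02 with quantile normalization. Mirg (109729764 to 109749460), the host of a large microRNA cluster, was at 4.26, 7.09 and 12.6 scaled FPKM against 5.42, 9.54 and 13.4. The classes largely overlapped for Mirg, with 24 of 30 cortex-like libraries inside the striatum-like range. The annotation places 2 microRNA genes within Meg3, 4 within Rian and 14 within Mirg on the same strand, and 13 small nucleolar RNA genes within Rian, so that fragments of precursor RNAs can count towards these entries.

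On chromosome 7, Snrpn, Ndn and Magel2 belong to the cluster whose human counterpart is lost in Prader-Willi syndrome. Snrpn (59982495 to 60140219), which encodes a protein of the splicing machinery, was at 60.5, 81.4 and 94.6 scaled FPKM in the cortex-like libraries and at 102, 112 and 126 in the striatum-like ones, a narrow but complete separation with a log2 difference of -0.49. On FPKM as deposited this difference was -0.12 and the ranges overlapped, and with quantile normalization it was -1.65. Snrpn shares exons with Snurf and with a further overlapping gene model on the same strand, so the division of fragments among them is uncertain. Ndn (62346569 to 62350262), a MAGE-family protein of postmitotic neurons, was at 45.8, 64.6 and 85.9 scaled FPKM against 18.9, 24.8 and 31.1. Every cortex-like library was above every striatum-like one, the ratio of medians was 2.61 and the log2 difference was 1.36. Magel2 (62377010 to 62381640), a MAGE-family partner of ubiquitin ligases that is known for its expression in the hypothalamus, was low in both classes, at 0, 0.540 and 1.24 scaled FPKM against 0.140, 0.480 and 0.978. Its interval bounds correspond to a median of about 44 fragments in the 29 cortex-like libraries with a value above 0 and 39 in the striatum-like ones, against 4210 and 1660 fragments for Ndn, so differences between single libraries are coarse for Magel2.

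Peg3 (6703892 to 6730431, near the start of chromosome 7), a zinc finger protein, was at 13.2, 16.1 and 23.7 scaled FPKM in the cortex-like libraries and at 38.8, 42.5 and 51.5 in the striatum-like ones. No library lay between the classes, the ratio of medians was 2.65 and the log2 difference was -1.35. The neighbouring gene Usp29, which is transcribed away from the same promoter region and was singled out for that position after its values were seen, was at 3.31, 5.08 and 7.82 scaled FPKM against 10.4, 13.5 and 15.5, and its ratio of medians was also 2.65. Kcnq1ot1 (143212155 to 143296549), a long unspliced antisense RNA that silences genes on its own copy of the chromosome, was at 0.160, 0.454 and 0.817 scaled FPKM against 1.08, 2.19 and 3.21. The log2 difference was -1.54, the ratio of medians was 4.83 and the ranges did not overlap. The difference was -1.17 with a pseudocount of 1 and -2.14 with 0.1, and with quantile normalization the ranges overlapped. Kcnq1ot1 runs within Kcnq1 on the opposite strand.

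Zdbf2 and Nnat lie on other chromosomes. Zdbf2 (chromosome 1, 63273265 to 63314576), whose early transcription is known to affect feeding in newborn mice, was at 1.28, 4.26 and 7.17 scaled FPKM in the cortex-like libraries and at 4.76, 6.76 and 8.98 in the striatum-like ones. Its classes overlapped in 11 cortex-like and 19 striatum-like libraries. Nnat (chromosome 2, 157560078 to 157562522), a small membrane protein of the endoplasmic reticulum in the intron of Blcap, was at 42.9, 89.7 and 153 scaled FPKM against 31.4, 50.4 and 69.0. All but 4 cortex-like libraries were above the highest striatum-like library, and the log2 difference was 0.93, or 0.15 with quantile normalization. The plot of levels by library shows these ranges side by side.

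**Figure D1:**
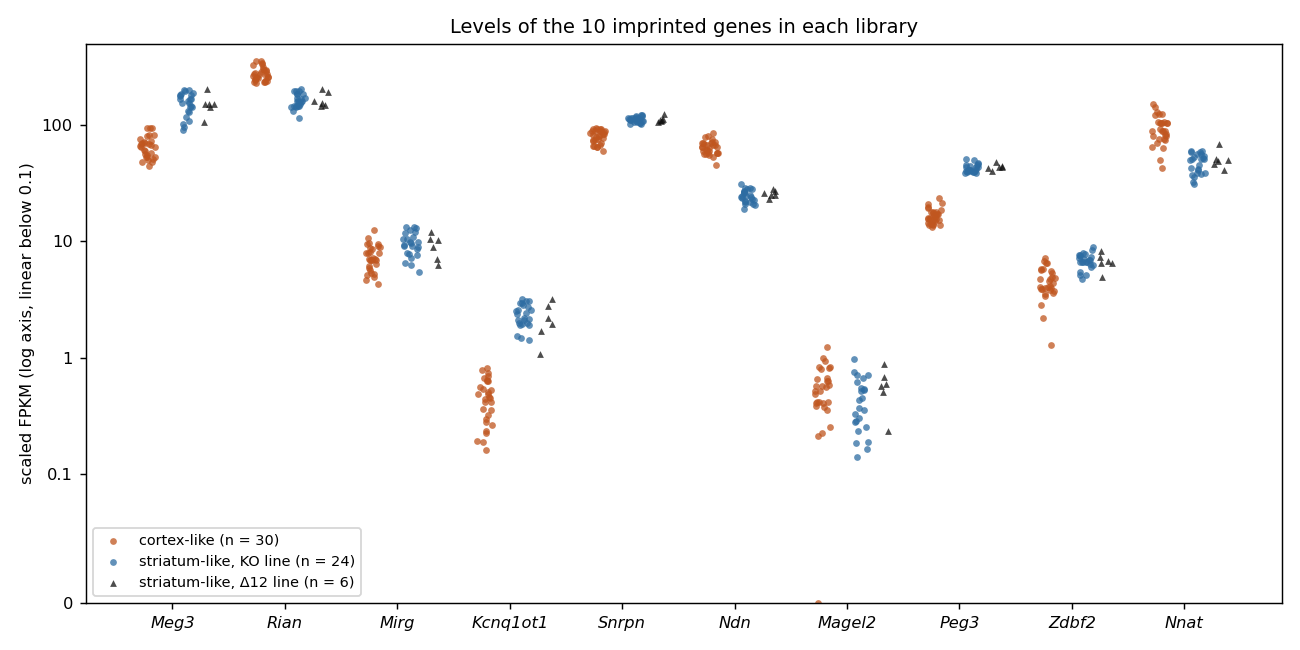
Scaled FPKM (vertical axis, logarithmic above 0.1) of the 10 imprinted genes in each of the 60 libraries, 1 point per library, for the 30 cortex-like libraries and the striatum-like libraries of the KO line (24) and the Δ12 line (6). With this scaling the ranges of the classes do not meet for Rian, Peg3, Snrpn, Ndn and Kcnq1ot1 (the direction for Rian is the opposite with quantile normalization), and the 6 striatum-like Δ12-line libraries lie with those of the KO line.

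For Ndn, Peg3 and Rian, the 6 striatum-like libraries of the Δ12 line were nearer to the KO-line libraries than to the cortex-like libraries of their own line (for Rian, on the scaling used here). Their median was 25.7 scaled FPKM for Ndn, against 24.4 in the 24 KO-line libraries. For Peg3 the medians were 43.7 and 41.4, and for Rian 157 and 161. With the Δ12 line alone, 6 of the 10 genes had classes that did not overlap, the same 5 and Meg3. For Meg3 the 6 values ran from 107 to 205.5 scaled FPKM, all above the cortex-like range. The share over all genes was then 43.3%. For Magel2, whose classes overlapped, their median was 0.585 scaled FPKM, against 0.399 in the KO-line libraries and 0.540 in the cortex-like ones.

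The classes also differed by transcript length, a property that runs through all genes. Over 13662 genes with an exonic length in the annotation, the median log2 difference (cortex-like minus striatum-like) was 0.97 for genes of up to 1 kb, 0.80 from 1 to 2 kb, 0.17 from 2 to 4 kb, -0.30 from 4 to 8 kb, -0.55 from 8 to 16 kb and -0.82 above 16 kb. Spearman's rho between length and difference was -0.37 across genes, which are not independent replicates. Against the 6 Δ12-line striatum-like libraries alone, the medians ran from 0.985 for the shortest to -0.82 for the longest genes. Beside the 500 genes nearest in length, with a median of -0.72, Rian (18.2 kb) was 1.48 higher. For Snrpn (2.2 kb), such genes had a median of 0.49, and it was 0.98 lower than that (-0.98). Rian and Snrpn thus differed in the direction opposite to genes of their length. For Ndn (3.7 kb) and Magel2 (4.6 kb) genes of that length had medians of -0.04 and -0.195, also of opposite sign, while the other 6 genes had the sign of theirs. Rian has the sign of its length under quantile normalization. Ndn kept a difference of 1.40 after the subtraction, Peg3 (13.3 kb) -0.68, Kcnq1ot1 -0.79 and Meg3 (18.1 kb) -0.50. Mirg, Zdbf2 and Nnat were close to genes of their length, with 0.10, 0.08 and 0.27 left. For Kcnq1ot1, the annotated length of 93.1 kb exceeds the entry of the tables and few genes are as long. The part of the length gradient in the class differences was not tested.

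**Figure D2:**
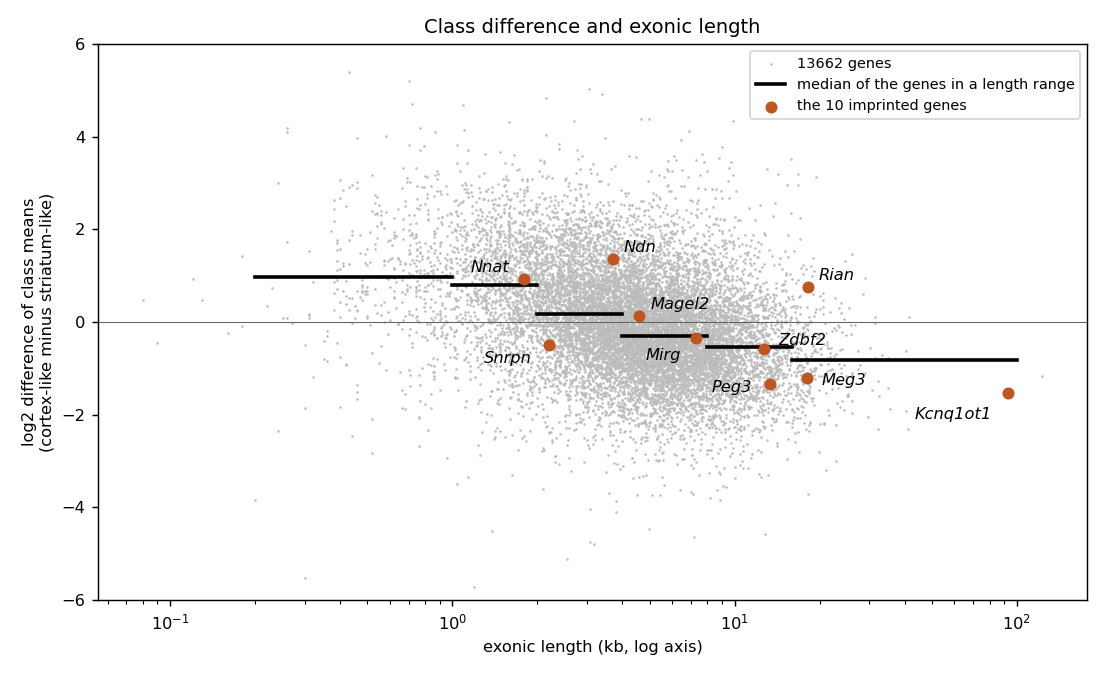
Difference between the class means on the log2 scale (cortex-like minus striatum-like, vertical axis) against exonic length in kb (logarithmic axis) for 13662 genes in grey, with the median of 6 length ranges as black lines and the 10 imprinted genes as coloured points. Longer genes lay lower, from a median of 0.97 up to 1 kb to -0.82 above 16 kb, while Rian stood at 0.76 (-1.02 with quantile normalization) and Snrpn at -0.49.

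FPKM are per length, so levels of different genes can be set in order within a class. The classes differed by transcript length as given above, and the part of that gradient in the order was not tested. In the cortex-like libraries, the medians fell in the order Rian, Nnat, Snrpn, Meg3, Ndn, Peg3, Mirg, Zdbf2, Magel2 and Kcnq1ot1. Rian stood above Nnat in every library, and the ranges of Ndn and Peg3, Peg3 and Mirg, and Zdbf2 and Magel2 did not meet either. The other neighbours in this order, namely Nnat with Snrpn, Snrpn with Meg3, Meg3 with Ndn, Mirg with Zdbf2 and Magel2 with Kcnq1ot1, had overlapping ranges. In the striatum-like libraries the order was Rian, Meg3, Snrpn, Nnat, Peg3, Ndn, Mirg, Zdbf2, Kcnq1ot1 and Magel2. There Rian overlapped with Meg3, Meg3 with Snrpn, Nnat with Peg3 and Mirg with Zdbf2, and the remaining neighbours were apart.

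Within a class, the genes did not vary by the same amount. In the cortex-like libraries, the coefficient of variation of scaled FPKM was lowest for Snrpn, Rian and Ndn, at 12.7%, 13.4% and 13.5%, and highest for Magel2 and Kcnq1ot1, at 46.7% and 40.5%. In the striatum-like libraries, Snrpn had 5.4%, Peg3 7.6% and Ndn 11.7%, and Magel2 47.6%. Zdbf2 had 29.5% in the cortex-like class, where its values spanned a 5.61-fold range, and 15.1% in the striatum-like class, where they spanned 1.89-fold.

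This variation was shared between genes. Over the 45 pairs of the 10 genes, 20 pairs were correlated across the 30 cortex-like libraries and 18 across the 30 striatum-like libraries (Pearson's r of log2(scaled FPKM + 0.5), two-sided permutation test with 100000 resamples, adjusted p under 0.05 over the pairs of a class). Of these, 9 pairs were positive in both classes, namely Ndn with Magel2, Nnat and Peg3, Magel2 with Nnat and Peg3, Rian with Meg3, Mirg and Peg3, and Meg3 with Peg3. The last of these was at the threshold in the striatum-like class (r = 0.42, rho = 0.37, adjusted permutation p = 0.0496). One pair, Snrpn with Kcnq1ot1, was negative in both. All genes of a library share its tissue piece and depth, so the pairs are not independent of each other. Each library also has a counterpart of the same line, genotype, labelled sex and number under the other tissue label, which lay in the same class and may come from the same mouse, and the p-values count both. With the mean of the 2 counterparts as 1 value, 15 per class, 10 pairs were called in each class (an alternative added after the data were seen). Of the pairs named above, only Ndn with Magel2 and Ndn with Nnat then passed the threshold in both classes. Snrpn with Kcnq1ot1 had an adjusted permutation p of 0.0534 in the cortex-like and 0.0262 in the striatum-like class.

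One set comprised Ndn, Magel2, Nnat and, in the cortex-like class, Zdbf2. Ndn and Nnat lie on different chromosomes and varied together in both classes, with r = 0.81 (rho = 0.81, adjusted permutation p = 7.5e-05) among the cortex-like libraries and r = 0.76 (rho = 0.72, adjusted permutation p = 0.000225) among the striatum-like ones. Without the 2 libraries farthest from the median of Ndn, r was 0.74 and 0.70, and for deviations from the means of the labelled groups it was 0.79 and 0.73. For the means of counterparts it was 0.85 (rho = 0.81, adjusted permutation p = 0.00157) and 0.75 (rho = 0.66, adjusted permutation p = 0.0127). Ndn and Magel2, neighbours on chromosome 7, had r = 0.755 (rho = 0.76, adjusted permutation p = 7.5e-05) and r = 0.71 (rho = 0.67, adjusted permutation p = 0.000225). Within the labelled groups, r of the striatum-like libraries was 0.38 for that pair, and for the means of counterparts r was 0.85 (rho = 0.75, adjusted permutation p = 0.00157) and 0.835 (rho = 0.85, adjusted permutation p = 0.00247). Magel2 and Zdbf2 had r = 0.82 (rho = 0.80, adjusted permutation p = 7.5e-05) in the cortex-like class and 0.09 (rho = 0.03, adjusted permutation p = 0.734) in the striatum-like class. Whether r differed between the classes was not tested. The value of 7.5e-05 comes from the smallest p of 1e-05 that these permutations can give.

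The chromosome 12 genes were correlated with each other in part. Meg3 and Rian had r = 0.44 (rho = 0.44, adjusted permutation p = 0.034) in the cortex-like class and r = 0.62 (rho = 0.56, adjusted permutation p = 0.00202) in the striatum-like class. The first of these rests on the difference between labelled groups and on single libraries, since r was 0.13 within the groups and 0.32 without the 2 farthest libraries. Rian and Mirg had r = 0.55 (rho = 0.58, adjusted permutation p = 0.00555) and r = 0.67 (rho = 0.61, adjusted permutation p = 0.0003). Meg3 and Mirg had r = 0.71 (rho = 0.64, adjusted permutation p = 0.000225) in the striatum-like class and r = 0.40 (rho = 0.41, adjusted permutation p = 0.0558) in the cortex-like class. For the means of counterparts, none of these 3 pairs passed the threshold in either class, with r between 0.44 and 0.61 and an adjusted permutation p from 0.0563 to 0.198. The class differences of Rian and Mirg were 0.76 (-1.02 with quantile normalization) and -0.35.

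For Snrpn the sign of the correlation with Ndn, a gene of the same cluster, was not the same in both classes. Among the cortex-like libraries, the correlation was negative, r = -0.54 (rho = -0.54, adjusted permutation p = 0.00555), and among the striatum-like libraries it was positive, r = 0.59 (rho = 0.55, adjusted permutation p = 0.00348). In the cortex-like class, Snrpn was also negatively correlated with Peg3, Rian, Zdbf2 and Kcnq1ot1, with r between -0.52 and -0.57. Kcnq1ot1 followed Peg3 in the cortex-like class, with r = 0.755 (rho = 0.79, adjusted permutation p = 7.5e-05), and Mirg in the striatum-like class, with r = 0.69 (rho = 0.74, adjusted permutation p = 0.0003). After a straight-line fit on the length contrast of each library, which is the median deviation of genes over 8 kb minus that of genes up to 2 kb, r for those was 0.455 and 0.37. This contrast ran from -0.97 to -0.34 in the cortex-like libraries and from 0.61 to 0.83 in the striatum-like ones. For the means of counterparts, Snrpn with Ndn had r = -0.59 (adjusted permutation p = 0.0603) and 0.66 (adjusted permutation p = 0.0368). Snrpn with Peg3 passed the threshold in the cortex-like class (r = -0.68, adjusted permutation p = 0.0268). With Rian, Kcnq1ot1 and Zdbf2 it did not (adjusted permutation p = 0.0563, 0.0534 and 0.136). Within the labelled groups, r of Snrpn with Peg3, Rian, Zdbf2 and Kcnq1ot1 ran from -0.57 to -0.29, the last for Rian. The heat map of r by pair shows all values over single libraries.

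**Figure D3:**
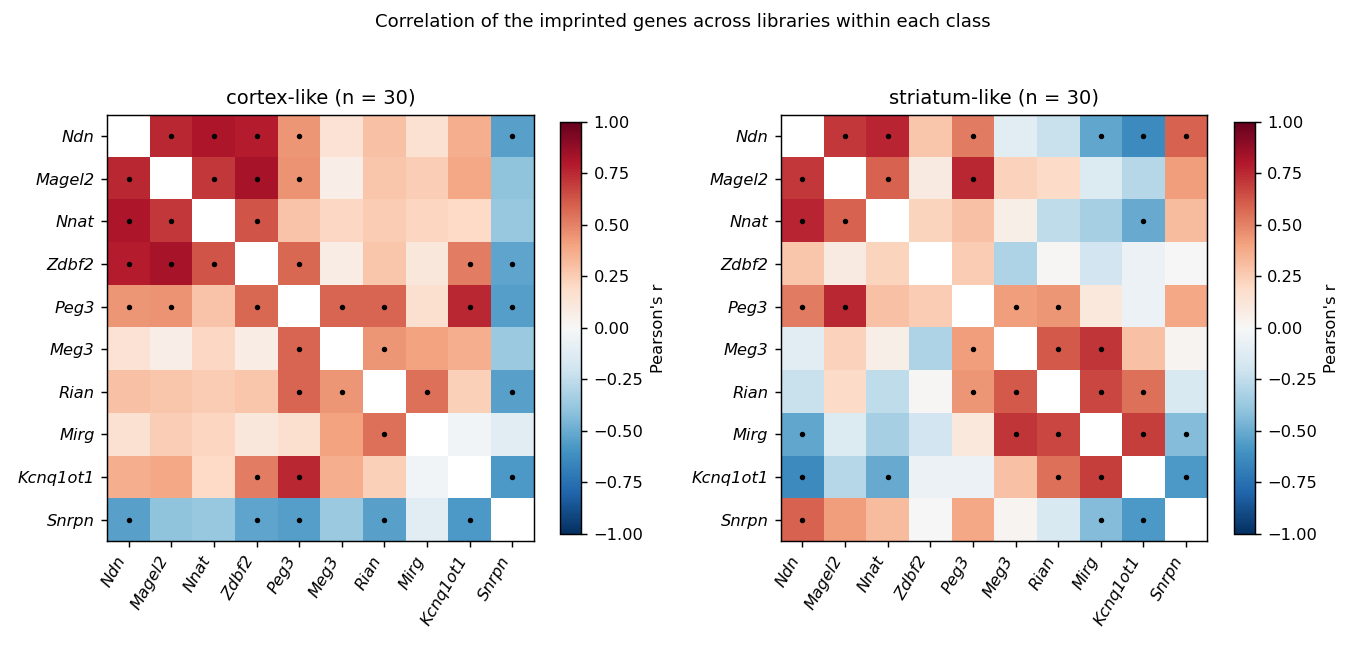
Pearson's r (colour scale from -1 to 1) between the log2 levels of each pair of the 10 imprinted genes across the 30 cortex-like libraries (left) and the 30 striatum-like libraries (right), with a dot where the adjusted permutation p was under 0.05. Ndn, Magel2 and Nnat were positively correlated in both classes, as were Rian and Mirg, while Snrpn changed sign against Ndn from -0.54 to 0.59.

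Markers of the hypothalamus moved with these genes. The list of 14 hypothalamic markers, which includes the neuropeptides Avp, Oxt, Pmch, Hcrt and Trh, was summed in each library. The sum ran from 15.1 to 293 scaled FPKM, with a median of 120.0, in the cortex-like libraries, and from 4.92 to 151, with a median of 12.6, in the striatum-like libraries. Of the list, 11 entries were at 0 in at least 1 library. Hcrt was at 0 in 8 cortex-like and 16 striatum-like libraries, and Avp, the vasopressin precursor, reached 188 scaled FPKM in the cortex-like class and 53.3 in the striatum-like class. In 20 relations, computed after these data were seen over single libraries, Magel2 followed the sum most closely, with r = 0.84 (rho = 0.875, adjusted permutation p = 4e-05) and r = 0.82 (rho = 0.85, adjusted permutation p = 4e-05) in the cortex-like and striatum-like classes. Ndn followed it with r = 0.815 (rho = 0.83, adjusted permutation p = 4e-05) and r = 0.61 (rho = 0.68, adjusted permutation p = 0.00086). Peg3 had r = 0.45 (rho = 0.55, adjusted permutation p = 0.031) and r = 0.78 (rho = 0.77, adjusted permutation p = 4e-05), and Nnat r = 0.79 (rho = 0.74, adjusted permutation p = 4e-05) and r = 0.42 (rho = 0.46, adjusted permutation p = 0.037). Without the 2 libraries farthest from the median of the sum, r was 0.82 and 0.84 for Magel2, 0.80 and 0.75 for Ndn, 0.53 and 0.72 for Peg3, and 0.70 and 0.62 for Nnat. For Mirg, Meg3 and Kcnq1ot1 no relation passed the threshold in either class. Snrpn had r = -0.42 in the cortex-like class and 0.44 in the striatum-like class (adjusted permutation p = 0.037 and 0.032). The p-values of these relations count counterparts that may share a mouse as separate libraries. In the striatum-like class, r also takes in the difference between the labelled KO/+ and +/+ libraries. There the KO/+ libraries had sums of 4.92 to 8.54 scaled FPKM with Magel2 from 0.140 to 0.428. Sums of 11.1 to 151 with Magel2 from 0.304 to 0.978 were found in the +/+ libraries. The part of hypothalamic tissue in the levels of the imprinted genes was not tested. The sums of the classes overlapped between 15.1 and 151 scaled FPKM. Not every marker was higher in the cortex-like class: Nkx2-1, a transcription factor of the hypothalamus and of basal forebrain interneurons, had medians of 0.0417 and 1.29 scaled FPKM.

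**Figure D4:**
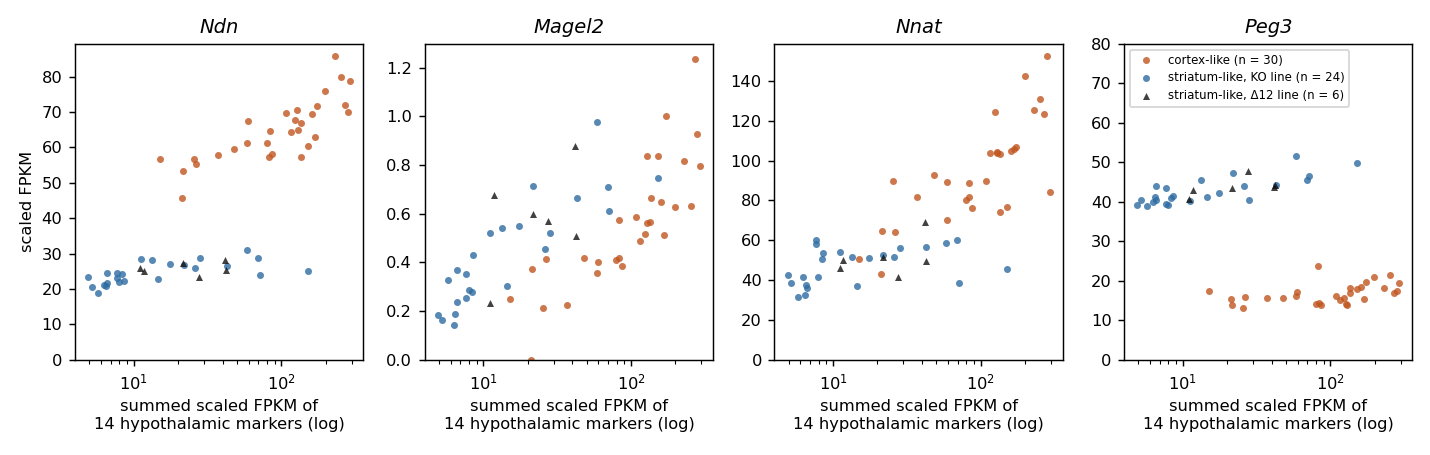
Scaled FPKM of Ndn, Magel2, Nnat and Peg3 (vertical axes, from 0) against the summed scaled FPKM of 14 hypothalamic markers (logarithmic axis), 1 point per library, by class and line. Within each class, the correlations with the marker sum were positive for all 4 genes. With this scaling the classes stayed apart for Ndn and Peg3, and with quantile normalization those of Ndn overlapped.

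The genes with the most similar pattern were found by the mean of the 2 within-class values of Spearman's rho, over 14064 genes. Magel2 was followed most closely by Ngb (neuroglobin), Oxt (the oxytocin precursor) and AW551984, with means of 0.89, 0.855 and 0.82. Ngb was also first for Ndn, with 0.81, before Zcchc12 and Gpr101, with 0.75 and 0.74, and it was the third for Nnat, with 0.70, after Pnck and Ly6h. For Peg3 the genes were Nova1, Sash1 and Pmch (the melanin-concentrating hormone precursor), with 0.745, 0.70 and 0.68. Meg3 had by far its closest match in the noncoding transcript Gm27000 of chromosome X, with 0.92, followed by Lrrc45 and Snhg11, with 0.66 and 0.65. For Kcnq1ot1 the 3 genes, Gm37895, Gm37899 and Gm37628, were gene models with no assigned function, with means of 0.89, 0.89 and 0.885, and Gm37899 lies on chromosome 12 between Rian and Mirg. Rian was followed by Ftx and Kmt2c (0.66 and 0.62), Mirg by Clk4, Ralgapa2 and Nav2 (0.62, 0.57 and 0.57), Snrpn by Rab3a, Sncb and Klc2 (0.67, 0.64 and 0.64) and Zdbf2 by Zmat3, Marf1 and Nalcn (0.69, 0.68 and 0.62). These are the highest values among many genes and carry no test.

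Libraries labelled as mutant were set against those labelled +/+ of the same line and labelled tissue in 6 comparisons. Each had 6 against 6 libraries and sex as a covariate (limma on log2(scaled FPKM + 0.5), Benjamini-Hochberg adjustment over all genes tested). The genotypes were taken from the same labels as the tissue and the sex. Apart from the Htt levels given above they were not checked, so the comparisons are of labels. Nothing in the labels says more of the replicates than the sex and a number, and the labels of sex are contradicted above, so p-values measure the spread among these libraries. The length contrast overlapped between mutant and +/+ libraries in all 4 comparisons with a heterozygote. Over the 6 comparisons, 1 difference passed the threshold. In them the median log2 fold change over the genes tested was between 0.0009 and 0.02.

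In the libraries labelled striatum of the KO line, Peg3 was the gene that passed. It was at 38.8, 39.9 and 43.6 scaled FPKM (lowest, median and highest) in the KO/+ libraries and at 41.2, 46.0 and 51.5 in the +/+ libraries, so that the groups overlapped in part. The log2 fold change was -0.20 ± 0.05 (SE, limma adjusted p = 0.0442). This was 1 of the 9 imprinted genes tested, and 8.17% of all 15808 genes were called in this comparison. The call was lost when any 1 of 10 of the 12 libraries was left out, with log2 fold changes between -0.17 (without +/+ male 2) and -0.21, and it held without +/+ male 3 or without +/+ female 2. Over all alternatives the limma adjusted p of Peg3 ran from 0.0254 to 1. With FPKM as deposited, 27 genes were called higher and 318 lower, against 695 and 597 here. Ndn was at 18.9, 22.5 and 24.2 scaled FPKM against 22.8, 25.6 and 31.1, with a log2 fold change of -0.25 ± 0.08 (limma adjusted p = 0.0981). Magel2, whose mean was under the filter, was at 0.163, 0.283 and 0.352 scaled FPKM against 0.304, 0.662 and 0.978. Without the filter, its log2 fold change was -0.55 (limma adjusted p = 0.0374), and Peg3 then had an adjusted p of 0.0621 in the limma fit. The other 7 genes tested had log2 fold changes between -0.22 (Meg3) and 0.07 (Kcnq1ot1).

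Cell type markers differed in the same comparison. Of the 8 hypothalamic markers tested, 7 were called lower in the KO/+ libraries, in which their sum ran from 4.92 to 8.36 scaled FPKM, against 14.6 to 151 in the +/+ libraries. All 10 striatal markers were called higher, with sums of 1604 to 2073 against 1153 to 1525, and all 5 oligodendrocyte markers tested were called lower. The part of these shifts in the values of Peg3, Ndn and Magel2 was not tested.

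In the libraries labelled cortex of the KO line, 18 of 15820 genes were called (0.114%), and none of the 9 imprinted genes tested was among them, while 5 had an unadjusted p under 0.05, as did 14.1% of all genes. Ndn was at 20.85, 21.95 and 24.6 scaled FPKM in the KO/+ libraries and at 26.6, 27.6 and 28.7 in the +/+ libraries. The groups did not overlap, and the log2 fold change of -0.29 ± 0.05 had a limma adjusted p of 0.068. It passed the threshold without KO/+ male 3 (-0.32, limma adjusted p = 0.0488), with quantile normalization and without the sex covariate, and over all alternatives its limma adjusted p ran from 0.0436 to 1. Magel2, under the filter, was at 0.140, 0.244 and 0.428 scaled FPKM against 0.519, 0.5435 and 0.712, also with no overlap, and had a limma adjusted p of 0.118 without the filter. Mirg was at 9.86, 12.3 and 13.3 scaled FPKM against 5.42, 6.84 and 11.9, with a log2 fold change of 0.62 ± 0.16 (limma adjusted p = 0.144). Nnat had -0.34 ± 0.13 (limma adjusted p = 0.262). Here the summed hypothalamic markers ran from 6.28 to 8.54 scaled FPKM in the KO/+ libraries and from 11.1 to 42.9 in the +/+ libraries, with 1 of 8 markers called lower. Their part in the difference of Ndn was not tested.

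These libraries of both labels were striatum-like, and the difference between the 2 labelled tissues in the KO/+ effect was tested in 1 fit over the 24 libraries, with counterparts that may share a mouse treated as separate. No gene of 15917 was called. For Peg3 the interaction was -0.12 ± 0.07 on the log2 scale (limma adjusted p = 0.547), for Ndn 0.04 ± 0.10 (limma adjusted p = 0.895), and the largest among the 9 genes were -0.62 ± 0.24 for Meg3 (limma adjusted p = 0.346) and -0.57 ± 0.21 for Mirg (limma adjusted p = 0.332). A difference between the labels was therefore not shown for Peg3.

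In the Δ12 line, 0 of 9 imprinted genes were called in Δ12/+ libraries labelled striatum and 0 of 8 in those labelled cortex, where 0.00663% and 0.053% of all genes were called by limma. The unadjusted p was under 0.05 for 3 and 0 of them, and for 3.15% and 8.7% of all genes. The 3 were Nnat, Magel2 and Zdbf2, with log2 fold changes of 0.46 ± 0.14, 0.48 ± 0.16 and 0.43 ± 0.19 and a limma adjusted p that rounded to 1. Nnat was at 76.7, 105 and 126 scaled FPKM in the Δ12/+ libraries and at 64.1, 72.0 and 88.6 in the +/+ libraries labelled striatum. The hypothalamic sum ran from 82.9 to 269.5 scaled FPKM in those Δ12/+ libraries and from 21.5 to 135 in the +/+ libraries, and its part was not tested.

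The Δ12/Δ12 groups held libraries of both classes, 3 labelled male that were cortex-like and 3 labelled female that were striatum-like. Peg3 showed this split directly, from 17.5 to 43.9 scaled FPKM in the 6 libraries labelled striatum and from 15.7 to 47.8 in those labelled cortex. The class was therefore a covariate, and the genotype term then rested on the libraries labelled male. None of the 10 genes was called in either labelled tissue, where 0.123% and 0.0637% of all genes were called by limma. In the libraries labelled striatum, 7 of 10 genes had an unadjusted p under 0.05, as did 13.9% of all genes, led by Peg3 (0.39 ± 0.08, limma adjusted p = 0.133), Snrpn (-0.41 ± 0.09, limma adjusted p = 0.144) and Nnat (0.77 ± 0.18, limma adjusted p = 0.155). Peg3 and Nnat had positive and Snrpn negative values, and the same signs held in the libraries labelled cortex, at 0.12 ± 0.15, 0.65 ± 0.30 and -0.20 ± 0.14. Rian and Ndn had 0.35 ± 0.14 and 0.31 ± 0.09 under the striatum label, and 0.24 ± 0.17 and 0.08 ± 0.17 under the cortex label. Zdbf2 and Magel2 had 0.72 ± 0.22 and 0.69 ± 0.25, against -0.04 ± 0.39 and 0.01 ± 0.34. Counterparts under the 2 labels may come from the same mouse, so the labels may not be independent. In the libraries labelled cortex, 0 of the 10 genes had an unadjusted p under 0.05, against 7.44% of all genes. The hypothalamic sum ran from 173 to 281 scaled FPKM in the 3 cortex-like Δ12/Δ12 libraries labelled striatum and from 21.5 to 135 in the +/+ libraries, with no overlap. In libraries labelled cortex it ran from 124 to 253 and from 15.1 to 293. Its part in these values was not tested. Without the class as a covariate, 4 of the 10 genes were called in the libraries labelled striatum, where the 6 mutant libraries then mix both classes.

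**Figure D5:**
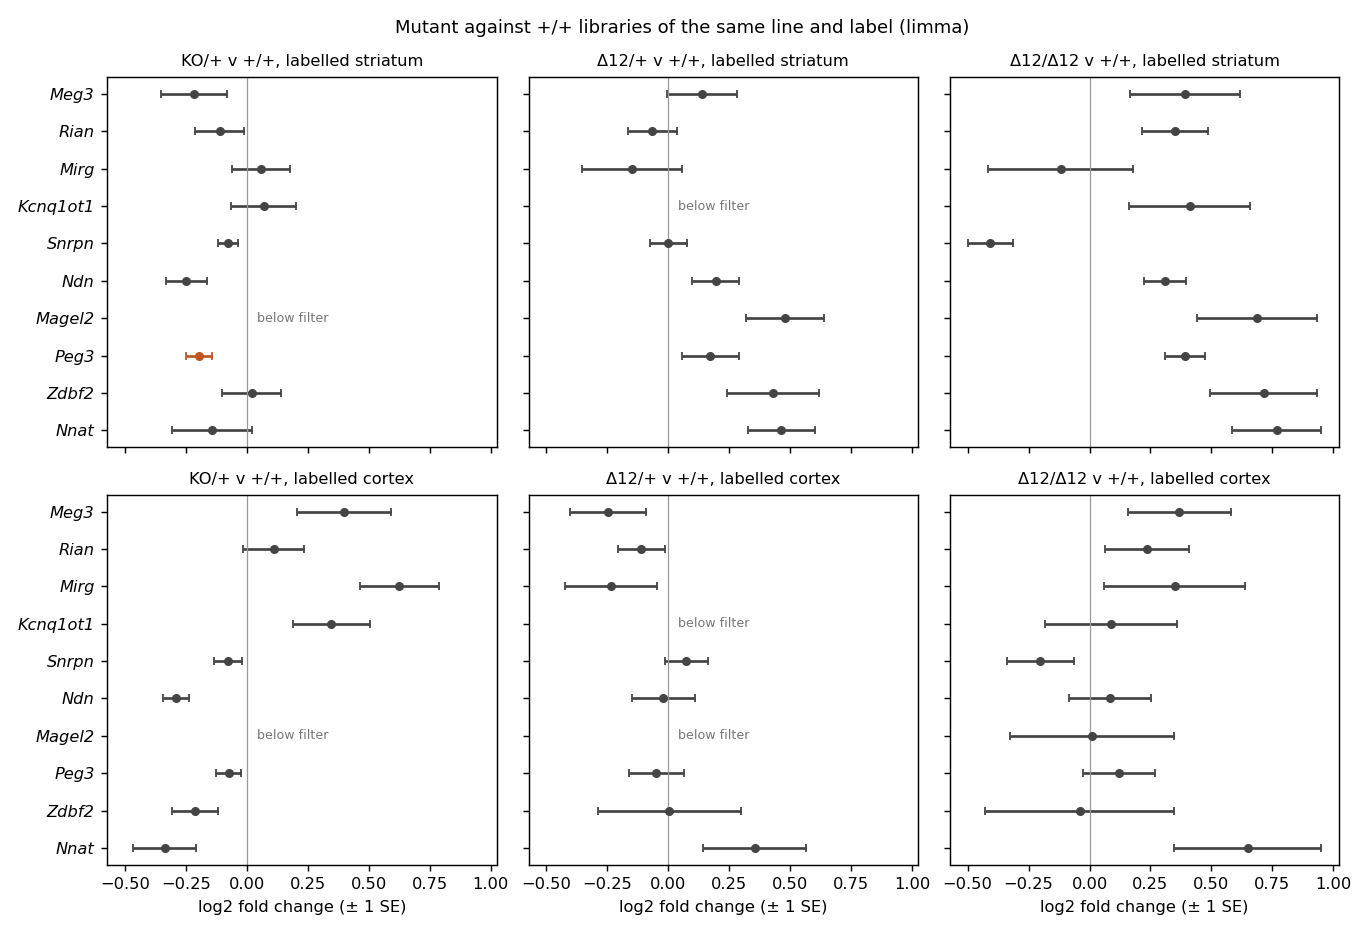
Log2 fold change (points, horizontal axis) with 1 standard error (bars) of the 10 imprinted genes in the 6 labelled comparisons of 6 mutant and 6 +/+ libraries, from limma. The coloured point marks the 1 called value, Peg3 in KO/+ libraries labelled striatum at -0.20, and genes under the filter are marked as such.

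Other imprinted genes were taken from a list of 70, of which 58 entries passed the filter. Between the classes, 5 of the 58 were higher in all cortex-like libraries and 16 lower, together 36.2% of the list, which is the share over all genes (16.9% higher and 19.3% lower). The median log2 difference was -0.49, against -0.06 over all genes. The largest differences among those without overlap were those of Pde10a, the striatal phosphodiesterase, at -4.57, Commd1 at 2.19, Ago2 at -2.09, Ppp1r9a at -1.86, Gab1 at -1.80, Adam23 at -1.73, Begain at -1.61 and Ctnna3 at -1.55. Snhg14, the host transcript of the small nucleolar RNAs next to Snrpn, has several entries in the tables. The entry nearest to Snrpn was higher in the cortex-like libraries, by 1.46, and one further away was lower, at -1.97, with no overlap in either case. In the labelled comparisons of KO/+ with +/+ libraries, 6 of 57 were called by limma in libraries labelled striatum, 4 higher and 2 lower, where 8.17% of all genes were called. The 5 with the smallest adjusted p were Gnas at -0.49 ± 0.08, Nap1l5 at -0.63 ± 0.11, Ppp1r9a at 0.36 ± 0.06, Pde10a at 0.465 ± 0.09 and Htr2a at 0.53 ± 0.105. In libraries labelled cortex 3 of 56 were called, all lower, where 0.114% of all genes were called. These 3 were Peg10 at -0.82 ± 0.10 (limma adjusted p = 0.00922), Dlk1, the paternally expressed neighbour of Meg3, at -1.12 ± 0.16 (limma adjusted p = 0.0254) and Nap1l5 at -0.49 ± 0.07 (limma adjusted p = 0.0265). Over all genes, the 18 calls of this comparison became 2 with the replicate block and 1 with all 30 libraries of the labelled tissue in 1 fit. Leaving out each library in turn gave 5 to 28. The hypothalamic sum ran from 6.28 to 8.54 scaled FPKM in these KO/+ libraries and from 11.1 to 42.9 in the +/+ libraries. The part of the marker shifts in the values of these other imprinted genes was not tested under either label. In the 4 comparisons of the Δ12 line, none of the list was called.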

How the data were processed

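RNA-Seq of total RNA after rRNA depletion was carried out on 60 libraries with a directional kit. The authors deposited 1 table of FPKM per library in the layout of Cufflinks. The submitters' processing notes name bcl2fastq 2.20, Trimmomatic 0.30, TopHat2 2.0.14, SAMtools 1.3, HTSeq 0.6.1p1 and build GRCm38.p4. The annotation release and the strand setting are not given in the sources used here, so genes that overlap on opposite strands may share fragments. Of 47597 entries, 23 had a status other than OK in some library and were left out. The tables give no fragment totals, so depth was derived from how wide the intervals were for single-transcript genes of at least 2000 nt with at least 20 fragments.

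Libraries were scaled by medians of ratios over 13235 genes above 0 in every library (size factors 0.761 to 1.376). Groups followed the labels, and classes followed Slc17a7. The members and lists were chosen with earlier results of these data known. Genotypes were compared with limma 3.58.1 in R 4.3.3 on log2(scaled FPKM + 0.5), for genes with a mean of at least 0.5 in the libraries of the fit, with sex and, for Δ12/Δ12, class as covariates, and an adjusted p under 0.05. Fold changes on this scale understate those of low genes. Correlations used scipy 1.17.1. Exonic lengths came from a mouse annotation of GRCm38, matched by gene identifier, and promoters from RefSeq (GRCm38.p6), where all 10 genes matched. In data simulated for KO/+ against +/+ in striatum, with 15808 genes, 57 of 100 changes of 0.5 and 87 of 100 of 1 on the log2 scale were recovered, and 5 unchanged genes were called.

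Other imprinted genes were named by the largest differences between classes without overlap (up to 10) and the smallest adjusted p in a comparison (up to 5), and for each imprinted gene the 3 with the highest mean rho. Genes that these rules name but that are withheld are not reported here. The alternatives were FPKM as deposited, quantile normalization, other pseudocounts, no filter, other covariates, all 30 libraries of a labelled tissue in 1 fit, a replicate block, an adjusted p under 0.1 and leaving out each library.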

Additional observations from a re-analysis of the deposited data

How the results depend on the processing

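Quantile normalization turned the class difference of Rian from 0.76 to -1.02 and left 3 of the 10 genes without overlap instead of 5. The share over all 16076 genes was then 34.6%, against 36.2% with the scaling used here. It moved Meg3 from -1.21 to -2.60, Snrpn from -0.49 to -1.65, Ndn from 1.36 to 0.84 and Nnat from 0.93 to 0.15, and the cause was not tested. With FPKM as deposited, Zdbf2 went from -0.58 to -0.25 and Mirg from -0.35 to -0.003. For KO/+ in libraries labelled striatum, the 1 called gene became 0 with FPKM as deposited, with all 30 libraries in 1 fit and with the replicate block, and 2 at an adjusted p under 0.1. Leaving out each library in turn gave 0 to 1. Without the filter the count was 1, with Magel2 in the place of Peg3. In libraries labelled cortex, the count of 0 became 1 (Ndn) with quantile normalization, without the sex covariate and at an adjusted p under 0.1, and leaving out each library gave 0 to 1. For Δ12/Δ12 in libraries labelled striatum, the count of 0 became 1 with all 30 libraries in 1 fit and 4 without the class as a covariate, a fit that mixes the classes and called 4443 genes of 15467 in place of 19. The other comparisons kept their count of 0 under the alternatives run. The number of correlated pairs was 38 over both classes, and 27 to 43 under the alternatives over single libraries. It was 20 with the means of the 2 libraries of the same number, which have 15 values per class instead of 30. This and residuals on the length contrast were added after the data were seen, as were the length-matched differences and the KO line alone for the striatum-like libraries.

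Within a labelled tissue, deviations of same-numbered libraries of the genotypes from their group means correlated at -0.222 to 0.157. At most 2 of 6 pairs of a comparison exceeded 0.1. The paper states that littermates were compared, and such correlations cannot show which libraries came from littermates. For Δ12/Δ12, the means of the mutant groups also mix both classes. Across the tissue labels of a genotype, the 15 same-numbered pairs of each class correlated at -0.16 to 0.157, and 4 of 15 exceeded 0.1 in each. With the replicate block the genes called over the whole table fell from 1292 to 697 in KO/+ striatum and from 18 to 2 in KO/+ cortex.

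Magel2 rests on few fragments, a median of 44 and 39 in the classes. Class and line cannot be told apart outside 6 libraries.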

Other observations

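A list drawn up for imprint maintenance also held genes with other actions on methylated DNA, such as oxidases of 5-methylcytosine. Of 16 genes of this list tested, 8 were lower in every cortex-like library and 0 higher, where 19.3% and 16.9% of all genes were, with a median log2 difference of -0.78. Among these were the 5-methylcytosine oxidases Tet3 (-2.36) and Tet1 (-2.15), the histone methyltransferase Setdb1 (-1.16), the DNA methyltransferases Dnmt3a (-0.99) and Dnmt1 (-0.66), Arid4a (-0.90) and Zfp445 (-0.75), a zinc finger protein that acts with ZFP57. Each of the 8 has more than 4 kb of exonic length, and the median difference of genes from 4 to 8 kb was -0.30. The part of length was not tested. None of the list was called by limma in the 6 labelled comparisons.

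The stretch from Meg3 to Mirg spans 208 kb and held 100 entries, of which 92 were small RNAs. Of the 100, 89 were at 0 in all libraries, and 8 passed the filter. Besides Rian, which had the opposite direction under quantile normalization, 3 of the 8 had classes that did not overlap, as did 36.2% of all genes: Gm26945 (-1.82), Gm37899 (-1.75) and B830012L14Rik (-1.66), chosen after their values were seen. All 3 were lower in the cortex-like libraries, while Rian was at 0.76, and Gm26945 lies within the positions of Rian.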
